A study of Mus musculus with 28 samples.

Results

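The TNF ligand and receptor superfamily was followed during the conversion of a mouse Pre-B cell line, C10, into macrophages. Its members here were the 39 genes, of the 55450 in the deposited expression table, whose symbol was Tnf, Lta, Ltb, Ltbr, Cd27, Cd40 or Fas, or began with Tnfrsf or Tnfsf and a digit. They comprised 14 ligands, 5 receptors with a death domain, 15 receptors without one, a group of 4 with the decoy receptors and Tnfrsf26, and 1 antisense RNA, Tnfsf13os. RNA-seq covered 4 time points with 3 libraries each (0h, 1h, 12h and 48h), and Promoter Capture Hi-C, which enriches a Hi-C library for fragments that hold a gene start, gave 1 list of interactions per time point from 2 merged replicates. All samples came from 1 cell line, C10, derived from HAFTL cells and carrying a CEBPalpha-ER transgene, in which the transcription factor C/EBPα from rat is joined to the hormone-binding part of the estrogen receptor, so that the replicates were samples of a single line. Conversion was started with 100 nM β-estradiol, 10 nM IL-3 and CSF-1, and the 0h samples were the cells at the start. No sample carried the transgene without induction for 48h, so C/EBPα, the 2 cytokines and time in culture cannot be told apart.

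Ligands of this superfamily are mostly trimeric proteins of the cell surface that can also be shed, and they signal by clustering their receptors. Receptors with a death domain, such as Fas, can start apoptosis, whereas the others recruit TRAF adaptors and activate NF-kB and MAP kinases. Decoy receptors bind a ligand and pass on no death signal. In B-lineage cells the receptors Tnfrsf13b and Tnfrsf13c respond to the survival factor BAFF, and macrophages are a main source of TNF.

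The promoters of members whose levels or contacts are described below are shown first, because C/EBPα binds DNA directly. RefSeq windows (build GRCm38.p6) were matched for 30 of the 39 members, 34 windows in all, and none was matched for Cd40, Tnfrsf10b, Tnfrsf11b, Tnfrsf22, Tnfrsf26, Tnfsf4, Tnfsf9, Tnfsf12 and Tnfsf13os. In the 250 bases before each start, both strands were searched for the letters TTGCNNAA (C/EBP), TGANTCA (AP-1), GGGANTTTC (NF-kB) and GAGGAAGT (PU.1). Windows below run 5′ to 3′ on the strand of the gene, with a match in capitals, and matches did not overlap one another. Tnfsf14 is shown for an AP-1 match, Tnfrsf23 for the one C/EBP match among the members, Ltb for an NF-kB match and Tnf as the ligand with the highest level from 0h to 48h, with no match.
Tnfsf14, chr17:57194182-57194431, minus strand: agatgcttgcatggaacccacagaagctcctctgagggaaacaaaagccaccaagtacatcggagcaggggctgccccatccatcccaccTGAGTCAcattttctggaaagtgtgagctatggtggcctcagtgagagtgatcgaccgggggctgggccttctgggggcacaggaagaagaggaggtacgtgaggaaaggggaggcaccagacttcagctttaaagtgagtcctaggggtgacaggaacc
Tnfrsf23, chr7:143685876-143686125, minus strand: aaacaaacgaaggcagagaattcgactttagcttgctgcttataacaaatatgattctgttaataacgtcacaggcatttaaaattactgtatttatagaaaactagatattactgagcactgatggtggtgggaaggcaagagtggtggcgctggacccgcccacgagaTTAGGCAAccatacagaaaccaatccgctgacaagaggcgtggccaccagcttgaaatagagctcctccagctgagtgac
Ltb, chr17:35194257-35194438, plus strand, the 182 bases outside annotated exons: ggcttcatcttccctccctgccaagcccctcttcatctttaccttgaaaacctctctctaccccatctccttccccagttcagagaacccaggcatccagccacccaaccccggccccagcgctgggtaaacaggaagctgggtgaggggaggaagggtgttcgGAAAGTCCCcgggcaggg
Tnf, chr17:35202008-35202257, minus strand: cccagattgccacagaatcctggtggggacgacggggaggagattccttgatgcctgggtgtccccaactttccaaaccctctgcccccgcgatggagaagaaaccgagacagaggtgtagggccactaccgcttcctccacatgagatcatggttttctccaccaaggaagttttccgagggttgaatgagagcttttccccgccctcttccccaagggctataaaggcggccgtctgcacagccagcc
The C/EBP letters were in 1 of the 34 member windows and in 9.56% of all 32851 windows. AP-1 letters were in 6 of the 34 (Fas, Tnfrsf8, Tnfrsf9, Tnfsf13, Tnfsf13b and Tnfsf14) and in 6.75% of all windows. NF-kB letters were in 1 of the 34 (Ltb) and in 0.941% of all, and PU.1 letters in 1 of the 34 (Tnfsf18) and in 2.44% of all. A match describes letters only, and binding was not measured here.

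Levels below are scaled TPM, that is, the deposited TPM (transcript abundance per gene length and library total) divided by a size factor per library, since 2 genes of the ribosomal RNA locus, CT010467.1 and AY036118, took 70.3% to 82.9% of all TPM in a library. The size factors ran from 0.627 to 1.56. TPM keep no read depth, so no counting interval can be given. Summed over 9 Pre-B markers, levels were 324 to 350 at 0h and 42.8 to 51.0 at 48h, and over 8 macrophage markers 4.35 to 5.55 and 247 to 276. Of the macrophage markers, Lyz2 alone was at 151 to 162 at 48h. By the limma comparisons described below, 6 of the 7 tested were higher at 48h. Mrc1 was lower at 1h (-1.39, adjusted p = 0.0311) and 12h (-1.93, adjusted p = 0.00194) and not called at 48h (0.85, adjusted p = 0.0733). Cd68 was lower at 1h (-1.03, adjusted p = 0.00970). Neither 1h call held with the TPM as deposited. Adgre1 was listed at 0 in 10 of 12 libraries, with at most 0.386, also at 48h. The 6 granulocyte markers summed to at most 0.241 at 0h and 1h, to 6.20 to 8.16 at 12h, nearly all of it Camp, and to 0.606 to 0.811 at 48h, with Mpo at 0 throughout. The part of that transient signal in the changes at 12h was not tested. Markers of T and NK cells summed to at most 0.195, and among those of fibroblasts and endothelium, which summed to 3.40 to 10.3, Col1a1, Col3a1 and Kdr were at 0. Nearly all of that sum was Pecam1, at 3.32 to 9.87, which was lower at 1h (-0.59, adjusted p = 0.0205) and higher at 48h (0.66, adjusted p = 0.00215), neither of them called with the TPM as deposited. Pdgfrb, at most 0.288, was higher at 12h (1.14, adjusted p = 0.0328), and Cdh5 reached 0.765 at 48h. The part of these genes in the members' changes was not tested. The 4 libraries of replicate 3 stood apart from the others, with Mir6236 at 23097 to 42360 TPM against 7420 to 20649 in the other 8. Their deviations from the means of their time points correlated negatively with those of the other replicates in 24 of 24 pairs. Deviations within a time point sum to 0, so these signs are not separate from the positive correlations among the replicate 3 libraries, given further below.

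Of the 39 members, 9 were listed at 0 in all 12 libraries (Tnfrsf11b, Tnfrsf17, Tnfrsf25, Tnfsf4, Tnfsf8, Tnfsf11, Tnfsf12, Tnfsf15 and Tnfsf18). A further 8 were above 0 somewhere but had a mean under 0.1 TPM and were not tested, and none of these passed 0.519 in any library. The remaining 22 were tested and 14 of them were above 0 in every library. The mean over the 12 libraries was at least 1 TPM for 10 members. The tested members thus comprised 6 of 14 ligands, 3 of 5 death domain receptors, 10 of 15 other receptors and 3 of 4 genes of the decoy group, and counts below are over these 22 and not over all members. In bulk RNA, fewer cells expressing a gene and less RNA per cell cannot be told apart.

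Summed levels of the 14 ligands were 5.75, 7.16 and 6.91 in the 0h libraries, 5.67, 6.63 and 5.87 at 1h, 14.1, 12.8 and 12.9 at 12h, and 22.4, 23.6 and 29.7 at 48h. Ligand sums of scaled TPM thus did not overlap between 12h and the 2 earlier time points, nor between 48h and 12h. The latter separation depends on the scaling, since sums of the TPM as deposited overlapped between 12h and 48h. The 4 genes of the decoy group together gave 1.11 to 1.69 at 0h, 0.809 to 1.36 at 1h, 5.94 to 9.09 at 12h and 6.51 to 8.83 at 48h. The 15 receptors without a death domain gave sums of 20.6 to 25.8 at 0h and 24.6 to 32.9 at 48h, which overlapped. For the death domain receptors the sums were 0.941 to 1.16 at 0h and 3.09 to 4.08 at 48h.

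**Figure D1:**
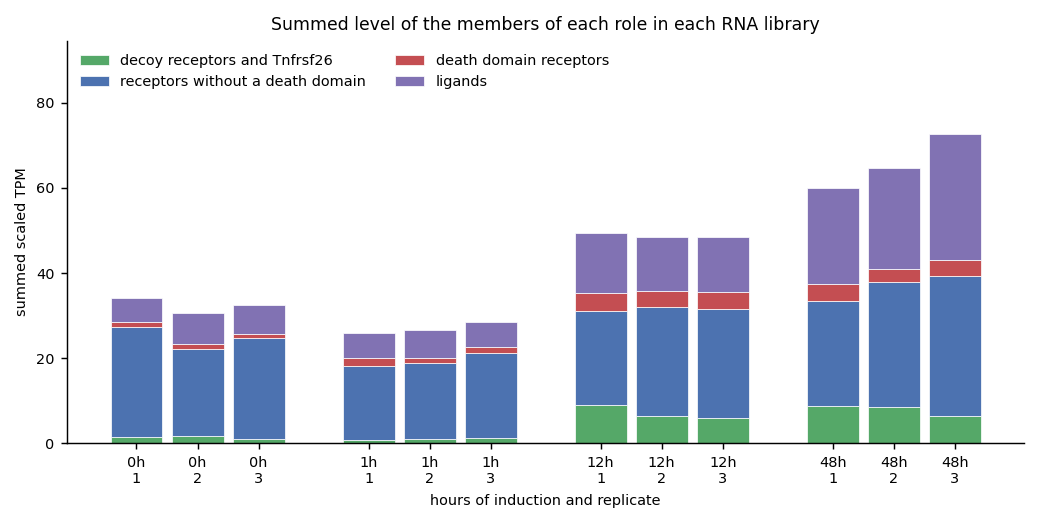
Summed scaled TPM of the members of each role (stacked colours) in each of the 12 RNA libraries, ordered by hours of induction and replicate. The ligand part of the bars rises from 5.75 to 7.16 at 0h to 22.4 to 29.7 at 48h, and the receptors without a death domain are the largest part at 0h.

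Each member was compared between time points with limma on log2(scaled TPM + 0.1), in 1 model over the 12 libraries and all 16415 genes with a mean of at least 0.1 TPM, and was called at a Benjamini-Hochberg adjusted p under 0.05. Fold changes are on this scale, on which the 0.1 understates the changes of low genes. At 1h against 0h, no member was called higher, against 5.42% of all genes tested, and 3 were called lower (Tnfrsf13c, Tnfrsf14 and Tnfrsf19), against 4.92% of all genes. At an unadjusted limma p under 0.05, 2 of the 22 tested members were higher at 1h and 4 were lower, and no other tool was run on these values. At 12h, 12 members were called higher, against 16.0% of all genes, and 2 lower, against 14.5%. At 48h, 12 members were called higher, against 24.5% of all genes, and 1 lower, Tnfrsf19, against 22.0%. Between 1h and 12h, 11 members were called higher, against 11.3% of all genes, and 1 lower, against 8.77%. Between 12h and 48h, 5 were called higher, against 10.5% of all genes, and 2 lower, against 11.9%. Against 0h the 22 tested members had a median log2 fold change of -0.02 (1h), 0.88 (12h) and 1.04 (48h), beside 0.02, 0.07 and 0.07 over all genes tested.

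These counts depend on the scaling, since with the TPM as deposited the all-gene median log2 fold change against 0h moved to 0.59 (1h), 0.34 (12h) and -0.18 (48h). On that scale 4 members were called higher and 2 lower at 1h, 14 and 1 at 12h, and 8 and 2 at 48h. Between 12h and 48h, where the median of all genes was -0.62 on that scale, the split turned from 5 higher and 2 lower to 4 higher and 6 lower. Shares of all genes called are given here for the main scaling only. The member counts with the TPM as deposited thus cannot be set against all genes.

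**Figure D2:**
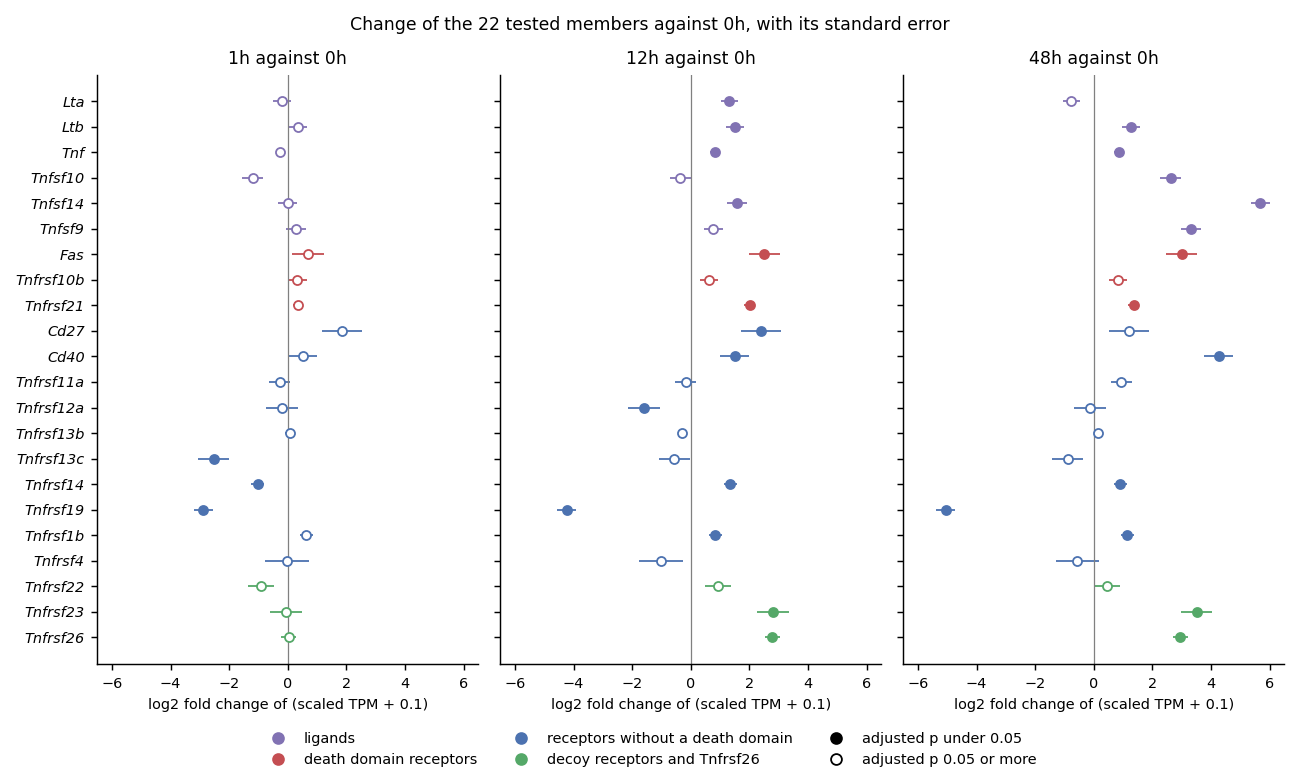
Log2 fold change of (scaled TPM + 0.1) against 0h with its standard error (bars) for the 22 tested members at 1h, 12h and 48h, coloured by role, with filled points for an adjusted p under 0.05. At 1h the only filled points are 3 receptors without a death domain that lie below 0, and at 48h 12 filled points lie above 0 and Tnfrsf19 lies below.

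Among the ligands, Tnf, the founding cytokine of the family, lies on chr17:35199381-35202007 between Ltb and Lta, with 1.16 kb to Lta and 3.06 kb to Ltb. Tnf was at 4.17, 4.70 and 4.95 in the 0h libraries, 3.61, 4.24 and 3.57 at 1h, 8.36, 8.17 and 7.98 at 12h, and 7.20, 8.14 and 9.87 at 48h. All 12h and 48h libraries were above all earlier ones, while 0h and 1h overlapped. In the TPM as deposited, Tnf at 48h (4.52, 5.84 and 7.42) overlapped 1h (5.62, 6.48 and 4.73). The difference between 48h and 1h was not tested for any member. Tnf rose at 12h by 0.82 ± 0.15 (SE) on the log2 scale (adjusted p = 0.00154) and at 48h by 0.84 ± 0.15 (adjusted p = 0.000598). The difference at 1h was -0.27 ± 0.15 (adjusted p = 0.278), and with the TPM as deposited it turned to 0.38.

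Ltb, which encodes the membrane anchor of the lymphotoxin αβ trimer (chr17:35194439-35196320), was at 0.718, 0.837 and 0.953 at 0h, 0.963, 1.32 and 1.00 at 1h, 2.86, 2.00 and 2.92 at 12h, and 1.50, 1.80 and 3.69 at 48h. The libraries of 12h and 48h lay above all earlier ones, and the 48h group was spread, with replicate 3 at over 2 times the others. In the TPM as deposited, Ltb at 48h (0.94, 1.29 and 2.77) overlapped 1h (1.5, 2.02 and 1.33). Ltb rose at 12h (log2 fold change 1.51 ± 0.31, adjusted p = 0.00333) and at 48h (1.28 ± 0.31, adjusted p = 0.00515). Its neighbour Lta, the soluble partner of that trimer and a TNF receptor ligand in its own right, was high at 12h only. Lta was at 0.233, 0.293 and 0.322 at 0h, 0.141, 0.379 and 0.219 at 1h, 0.797, 0.961 and 0.798 at 12h, and 0.143, 0.0976 and 0.133 at 48h. Lta rose at 12h against 0h (1.32 ± 0.30, adjusted p = 0.00678) and fell from 12h to 48h (log2 fold change -2.08 ± 0.30, adjusted p = 0.000513). Between 12h and 48h the differences of its neighbours were 0.03 ± 0.15 for Tnf (adjusted p = 0.931) and -0.24 ± 0.31 for Ltb (adjusted p = 0.647). With the TPM as deposited Tnf was called lower there (-0.71, adjusted p = 0.0160), and Ltb was at -0.95 (adjusted p = 0.0548).

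A later pattern was seen for 3 ligands on 2 chromosomes. Tnfsf9, the ligand of the costimulatory receptor Tnfrsf9 (chr17:57105325-57107757), was at 0.495, 1.06 and 0.524 at 0h, 0.924, 0.530 and 1.08 at 1h, 1.43, 1.46 and 0.791 at 12h, and 7.73, 6.91 and 7.56 at 48h. The 48h libraries stood far above an overlapping remainder. Tnfsf9 rose from 12h to 48h by 2.54 ± 0.33 (adjusted p = 0.000240) and was 3.31 ± 0.33 above 0h (adjusted p = 9.74e-06), while its difference at 12h against 0h was 0.77 ± 0.33 (adjusted p = 0.105). That difference was called without 0h replicate 2 (1.06), without 12h replicate 3 (1.03), and with the TPM as deposited (1.07, adjusted p = 0.0224). Tnfsf14, which encodes LIGHT, a ligand of Tnfrsf14 and of the lymphotoxin β receptor (chr17:57189492-57194177, 81.7 kb from Tnfsf9), was listed at 0 in all 6 libraries of 0h and 1h. Its levels were 0.272, 0.117 and 0.229 at 12h and 3.67, 4.64 and 7.38 at 48h. No fold against 0h is given for a gene at 0 there, and from 12h to 48h Tnfsf14 rose by 4.10 ± 0.33 (adjusted p = 7.07e-06). Against 0h, Tnfsf14 was called higher at 12h (adjusted p = 0.00400), a call lost with a pseudocount of 1, and at 48h (adjusted p = 1.31e-07).

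Tnfsf10, which encodes TRAIL, a ligand that can start apoptosis through Tnfrsf10b (chr3:27317028-27342427), was at 0.136, 0.261 and 0.155 at 0h, 0.0321, 0.0262 and 0.00754 at 1h, 0.206, 0.0899 and 0.0739 at 12h, and 2.06, 1.90 and 1.06 at 48h. All 48h libraries were above all others, and all 1h libraries were below the rest. Tnfsf10 rose at 48h against 0h (2.62 ± 0.36, adjusted p = 0.000107) and against 12h (2.98 ± 0.36, adjusted p = 0.000126). At 1h the difference of -1.20 ± 0.36 missed the threshold (adjusted p = 0.0570). Other ligands above 0 in some library were Tnfsf13 and Tnfsf13b, which encode APRIL and BAFF, with at most 0.225 and 0.112. On chromosome 11 the antisense Tnfsf13os overlaps both Tnfsf13 and Tnfsf12, which do not overlap each other. Whether counting used strand is not given in the sources used here, so reads there could be split between Tnfsf13os and either ligand. Another gene, Tnfsfm13, outside the symbols used here, has a start in the same captured fragment as Tnfsf12. Its level was not examined, and whether reads of either ligand were assigned to it was not tested. A listing of Tnfsf12 at 0 thus does not show that its transcript was absent.

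**Figure D3:**
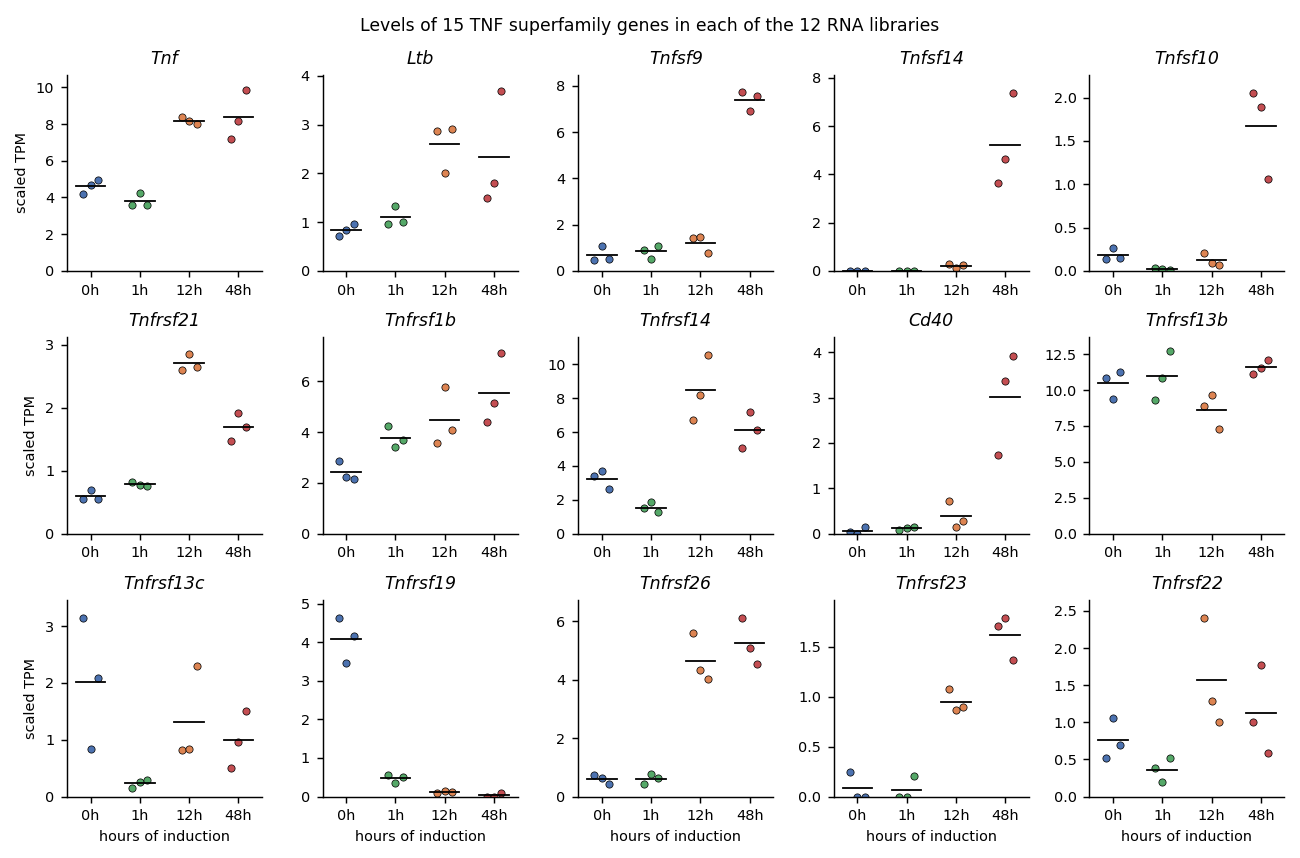
Scaled TPM of 15 members in each of the 12 RNA libraries (points) by hours of induction, with the mean of each time point as a line and an own axis from 0 for each gene. Tnfsf9, Tnfsf14, Tnfsf10 and Cd40 are high at 48h only, Tnfrsf26 and Tnfrsf23 from 12h on, Tnfrsf19 at 0h only, and Tnfrsf13b stays between 7.28 and 12.7.

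Of the death domain receptors, Tnfrsf21 (death receptor of the nervous and immune systems, chr17:43016555-43089189) was at 0.553, 0.695 and 0.560 at 0h, 0.828, 0.772 and 0.754 at 1h, 2.61, 2.86 and 2.65 at 12h, and 1.47, 1.92 and 1.70 at 48h. The 4 groups did not overlap, and the highest was that of 12h. In the TPM as deposited, however, 1h (1.29, 1.18 and 1.0) and 48h (0.92, 1.38 and 1.28) overlapped. Tnfrsf21 rose at 12h against 0h (2.00 ± 0.18, adjusted p = 1.05e-05), was still higher at 48h (1.35 ± 0.18, adjusted p = 7.69e-05), and fell between these (log2 fold change -0.65 ± 0.18, adjusted p = 0.0217). That fall missed the threshold without 12h replicate 2, 12h replicate 3 or 48h replicate 1. Fas, named after its values were seen (chr19:34290666-34327772), was listed at 0 in the 0h libraries and at 0.225, 0 and 0.0302 at 1h, then at 0.544, 0.270 and 0.672 at 12h and 1.42, 0.376 and 0.599 at 48h. All 6 late libraries were above all 6 early ones, with adjusted p = 0.00457 at 12h and 0.000787 at 48h against 0h. In the TPM as deposited, Fas in 1h replicate 1 (0.35) was above replicate 2 of 12h (0.3) and of 48h (0.27). Tnfrsf10b, the TRAIL receptor, was at 0.381 to 0.611 at 0h and 0.739 to 1.20 at 48h, a difference of 0.83 ± 0.32 that missed the threshold (adjusted p = 0.0504) and was called with the replicate number as a block (adjusted p = 0.0142). Tnfrsf1a, the death domain receptor of TNF, was listed at 0 in 10 of 12 libraries, with 0.0558 and 0.519 in 2 of the 48h libraries. Actb, Gapdh, Eef1a1, Rplp0, Tbp and Polr2a were above 0 in all 12. Their lowest levels ran from 2.90 (Tbp) to 615 (Eef1a1), so they do not show whether a gene at a low level would be detected.

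Of the receptors without a death domain, Tnfrsf13b, which encodes TACI and binds BAFF and APRIL (chr11:61126755-61149372), had the highest mean level of all members at each time point. Tnfrsf13b was at 10.8, 9.37 and 11.3 at 0h, 9.34, 10.8 and 12.7 at 1h, 8.90, 9.66 and 7.28 at 12h, and 11.1, 11.5 and 12.1 at 48h. The time points overlapped, save 12h and 48h, and Tnfrsf13b was called in none of the 5 comparisons, with a difference at 48h against 0h of 0.15 ± 0.15 (adjusted p = 0.462). With the TPM as deposited it was called higher at 1h (0.72, adjusted p = 0.00849) and lower from 1h to 12h (-0.67, adjusted p = 0.0117). Tnfrsf13b made up 32.3% of the members' summed level at 0h and 17.6% at 48h. At 12h its mean of 8.61 ± 1.22 (SD, n = 3) differed from those of Tnfrsf14 (8.49 ± 1.95) and Tnf (8.17 ± 0.192) by less than their spread.

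Tnfrsf13c, the BAFF receptor of B cells (chr15:82221743-82224369), was at 3.14, 0.837 and 2.08 at 0h, 0.154, 0.249 and 0.294 at 1h, 0.816, 0.845 and 2.29 at 12h, and 0.510, 0.962 and 1.50 at 48h. The 1h libraries were below all others, and those of 0h, 12h and 48h overlapped widely. In the TPM as deposited, 48h replicate 1 (0.32) was below 1h replicates 2 and 3 (0.38 and 0.39). Tnfrsf13c fell at 1h (log2 fold change -2.52 ± 0.53, adjusted p = 0.0116) and rose again from 1h to 12h (1.96 ± 0.53, adjusted p = 0.0225). The return missed the threshold without 1h replicate 1, 1h replicate 2 or 12h replicate 3. At 48h the difference to 0h was -0.89 ± 0.53 (adjusted p = 0.196), and without 0h replicate 2 it was called lower (-1.41).

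Tnfrsf14, which encodes HVEM, a receptor of LIGHT (chr4:154921933-154928563), followed a similar dip with a larger return. Its levels were 3.40, 3.72 and 2.62 at 0h, 1.50, 1.86 and 1.27 at 1h, 6.72, 8.17 and 10.6 at 12h, and 5.08, 7.18 and 6.15 at 48h. The 1h libraries were the lowest, and all libraries of 12h and 48h were above those of 0h. In the TPM as deposited, 0h (3.51, 3.42 and 2.2) overlapped both 1h (2.34, 2.85 and 1.69) and 48h (3.19, 5.15 and 4.62). Tnfrsf14 fell at 1h (log2 fold change -1.02 ± 0.22, adjusted p = 0.0132), rose from 1h to 12h (2.37 ± 0.22, adjusted p = 2.59e-05) and was above 0h at 12h (1.35 ± 0.22, adjusted p = 0.000869) and 48h (0.90 ± 0.22, adjusted p = 0.00581). The fall at 1h missed the threshold without 0h replicate 2 or 1h replicate 3, and was -0.39 with the TPM as deposited (adjusted p = 0.364).

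Tnfrsf19, which encodes TROY, a receptor known from skin, hair and nervous system (chr14:60963875-61046490), was the only member lower at 48h than at 0h by the test, joined by Lta (-0.95, adjusted p = 0.0317) with the TPM as deposited. Tnfrsf19 was at 4.62, 3.46 and 4.16 at 0h, 0.552, 0.347 and 0.513 at 1h, 0.0938, 0.144 and 0.126 at 12h, and 0, 0 and 0.0931 at 48h. No 2 time points overlapped, and the member with the highest level at 0h after Tnfrsf13b and Tnf was near 0 at the end. Tnfrsf19 fell at 1h (log2 fold change -2.88 ± 0.32, adjusted p = 0.000204), further from 1h to 12h (-1.36 ± 0.32, adjusted p = 0.0107), and by 48h against 0h by -5.06 ± 0.32 (adjusted p = 2.35e-07). These calls against 0h held under each of the 23 alternatives.

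Tnfrsf1b, the TNF receptor of leukocytes that lacks a death domain (chr4:145213463-145246870), was at 2.86, 2.25 and 2.17 at 0h, 4.24, 3.43 and 3.69 at 1h, 3.59, 5.77 and 4.07 at 12h, and 4.41, 5.14 and 7.12 at 48h. All later libraries were above all 0h libraries. The 12h libraries overlapped those of 1h and those of 48h, while all 48h libraries were above all 1h libraries. This order depends on the scaling. The TPM as deposited were 6.61, 5.24 and 4.9 at 1h and 2.77, 3.69 and 5.35 at 48h. There, 48h replicate 1 was also below 0h replicate 1 (2.95). The difference between 48h and 1h was not tested. Tnfrsf1b rose at 12h (0.84 ± 0.22, adjusted p = 0.0152) and at 48h (1.15 ± 0.22, adjusted p = 0.00140), and its difference of 0.63 ± 0.22 at 1h missed the threshold (adjusted p = 0.107). With the TPM as deposited the 1h difference was called (1.27, adjusted p = 0.00846). The 12h call ended without 0h replicate 2, 0h replicate 3 or 12h replicate 2.

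Cd40, the receptor through which T cells activate B cells and macrophages (chr2:165055627-165072948), was at 0.0485, 0 and 0.143 at 0h, 0.0770, 0.137 and 0.151 at 1h, 0.731, 0.153 and 0.288 at 12h, and 1.74, 3.36 and 3.92 at 48h. The 48h libraries were all above the rest, while the 12h libraries lay just above those of 1h. In the TPM as deposited, 12h replicate 2 (0.17) was below 1h replicates 2 and 3 (0.21 and 0.2). Cd40 rose at 48h against 0h (4.26 ± 0.49, adjusted p = 3.02e-05) and against 12h (2.76 ± 0.49, adjusted p = 0.00200). Its call at 12h (1.50 ± 0.49, adjusted p = 0.0394) was lost under 11 of 22 alternatives, among them without 0h replicate 1, 0h replicate 2, 12h replicate 1 or 12h replicate 3, or without any 1 of the 1h libraries.

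The remaining tested receptors of this group were low, with 0.972 as the highest level in any library, and those named here with values were chosen after these were seen. Cd27, a lymphocyte costimulatory receptor, was called higher at 12h (2.39 ± 0.68, adjusted p = 0.0208), at 0.656, 0.575 and 0.517 against 0, 0 and 0.119 at 0h. That call was lost without 0h replicate 1, 0h replicate 2, 12h replicate 1 or 12h replicate 2. Tnfrsf12a, the receptor of TWEAK, was called lower at 12h (-1.60 ± 0.55, adjusted p = 0.0460), a call lost under 16 of 22 alternatives, among them without any 1 library other than 12h replicate 1 and 48h replicate 1. Tnfrsf11a, which encodes RANK, was called higher from 12h to 48h (1.10 ± 0.36, adjusted p = 0.0485), a call lost under 18 of 22 alternatives, among them without any 1 library other than 12h replicate 3. Tnfrsf4, which encodes OX40, was not called and was at most 0.520.

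Of the decoy group, Tnfrsf11b lies on chromosome 15 and was listed at 0 throughout. On chromosome 7, Tnfrsf26, Tnfrsf22 and Tnfrsf23 stand in a row on the minus strand, 6.08 kb and 16.1 kb apart. Tnfrsf26, a mouse receptor of this cluster (chr7:143607659-143628722), was at 0.747, 0.641 and 0.417 at 0h, 0.430, 0.765 and 0.648 at 1h, 5.60, 4.34 and 4.03 at 12h, and 6.12, 5.09 and 4.55 at 48h. The 6 late libraries stood far above the 6 early ones, which overlapped. Tnfrsf26 rose at 12h (2.78 ± 0.25, adjusted p = 1.32e-05) and 48h (2.95 ± 0.25, adjusted p = 2.73e-06), and from 12h to 48h the difference was 0.17 ± 0.25 (adjusted p = 0.690).

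Tnfrsf23, a decoy receptor of TRAIL (chr7:143665809-143685872), was at 0.242, 0 and 0 at 0h, 0, 0 and 0.204 at 1h, 1.08, 0.872 and 0.901 at 12h, and 1.71, 1.78 and 1.37 at 48h. Here too each late library was above each early one, with log2 fold changes of 2.80 ± 0.54 at 12h (adjusted p = 0.00244) and 3.50 ± 0.54 at 48h (adjusted p = 0.000258). Tnfrsf22, the other TRAIL decoy (chr7:143634806-143649661), was at 0.524, 1.05 and 0.691 at 0h, 0.379, 0.196 and 0.513 at 1h, 2.41, 1.28 and 1.00 at 12h, and 1.00, 1.77 and 0.585 at 48h. These groups overlapped more, and Tnfrsf22 was called from 1h to 12h (1.82 ± 0.45, adjusted p = 0.0139), a call lost without 1h replicate 2 or 12h replicate 1. With the TPM as deposited it was also called higher at 12h against 0h (1.23, adjusted p = 0.0428) and lower at 48h against 12h (-1.16, adjusted p = 0.0473). The 3 genes are related copies, and reads that fit more than 1 of them could have been shared in the authors' estimates.

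Of the 49 calls of members over the 5 comparisons, 41 held with the TPM as deposited, 8 were lost and 13 others were gained. The gains not given above were Cd27 (2.34, adjusted p = 0.0210) and Tnfrsf21 (0.93, adjusted p = 0.0127), higher at 1h, Tnfrsf12a from 1h to 12h (-1.76, adjusted p = 0.0388), and, from 12h to 48h, Tnfrsf14 (-1.19, adjusted p = 0.0104) and Tnfrsf19 (-1.02, adjusted p = 0.0273). Lost calls included smaller late increases. With the TPM as deposited, the 48h differences against 0h were 0.44 for Tnf (adjusted p = 0.0994), 0.89 for Ltb (adjusted p = 0.0616), 0.49 for Tnfrsf14 (adjusted p = 0.225) and 0.74 for Tnfrsf1b (adjusted p = 0.0541), none of them called. Each of these 4 calls held under the other 22 of 23 alternatives. The increases at 48h of Tnfsf9, Tnfsf14, Tnfsf10, Cd40, Fas, Tnfrsf21, Tnfrsf23 and Tnfrsf26 held under each alternative in which they were tested, that scale included. With replicates 1 and 2 of each time point alone, a choice made after seeing the data, all 13 calls at 48h against 0h held, and 33 of all 49 calls. None changed sign. The 6 calls lost at 12h against 0h were those of Cd40, Fas, Lta, Tnfrsf12a, Tnfrsf1b and Tnfsf14, and the 2 at 1h those of Tnfrsf13c and Tnfrsf14.

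Ligands and receptors that bind each other were not always measured together. Tnf and Tnfrsf1b were both above 0 in all 12 libraries, while Tnfrsf1a was listed at 0 before 48h. Ltbr, the receptor of lymphotoxin αβ and of LIGHT, was at most 0.0956, whereas Tnfrsf14, the other receptor of LIGHT, was at 5.08 to 7.18 at 48h. Tnfrsf9, the receptor of Tnfsf9, was above 0 in 2 of 12 libraries, with at most 0.303. Of the superfamily genes with other symbols, Cd70, Fasl, Edar and Eda2r were at 0 in all 12 libraries, and Cd40lg, Eda and Ngfr were at most 0.223. Thus ligands of Cd27, Fas and Cd40 were at or near 0. Relt, an orphan receptor and the only 1 of these 8 tested, was at 2.87, 1.68 and 1.49 at 0h and 2.18, 3.55 and 7.13 at 48h, overlapping (0.95 ± 0.46, adjusted p = 0.115).

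Of the receptor adaptors and proximal signalling genes, a list of 27 with 26 tested, 3 were called higher and 2 lower at 1h. The shares of all genes there were 5.42% and 4.92%. At 12h, 5 were called higher and 2 lower, against 16.0% and 14.5% of all genes. At 48h, 14 were called higher and 3 lower, against 24.5% and 22.0% of all genes. Their median log2 fold change at 48h was 0.68, beside 0.07 over all genes tested. The largest increase was that of Mlkl, the pore-forming effector of necroptosis, at 0.553, 0.467 and 0.441 at 0h and 9.04, 10.1 and 6.35 at 48h (3.85 ± 0.48, adjusted p = 5.07e-05). Rhbdf2, which encodes a partner of the protease that sheds TNF, was at 0.398, 0.978 and 0.631 at 0h, 3.93, 3.24 and 3.33 at 1h and 7.49, 6.27 and 9.31 at 48h (3.39 ± 0.26, adjusted p = 1.09e-06). The 1h libraries of Rhbdf2 were already above all those of 0h. Traf4, an adaptor of the TRAF family, fell at 48h (log2 fold change -3.22 ± 0.28, adjusted p = 2.83e-06), from 4.84, 3.86 and 4.41 to 0.526, 0.376 and 0.266. Ripk3, the kinase upstream of Mlkl, fell as well (log2 fold change -1.17 ± 0.27, adjusted p = 0.00444), from 1.42, 1.39 and 1.73 to 0.414, 0.850 and 0.639.

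Promoter contacts were counted as the interactions listed for the captured fragment, or bait, that holds an annotated start of the gene (build mm10). The lists held 138769, 137836, 131598 and 144072 interactions at 0h, 1h, 12h and 48h. With 1 merged list per time point there are no replicates and no test, so differences below are descriptions of these lists. A bait was found for 36 of the 39 members and for 23193 genes in all, but none for Ltbr, Tnfrsf25 and Tnfsf18. Members had a median of 7, 8, 6 and 9 contacts at the 4 time points, beside 5 at each for all genes with a bait. Their means were 8.56, 9.42, 8.92 and 9.53, below those of all genes with a bait (9.68, 9.73, 9.17 and 9.60) at each time point. At 48h against 0h, 19 members had more contacts, 14 fewer and 3 as many, beside 42.7% of all genes with more and 41.3% with fewer. These counts, medians and means are over members and not over baits. Tnf shares its bait with Lta, Tnfrsf22 with Tnfrsf26, and Tnfsf13 with Tnfsf13os, so each of these baits is counted for both members. Some baits also hold a start of a gene that is no member. Examples are AC102285.1 with Fas, Gm11110 with Tnfsf9, Lst1 and Mir6973a with Ltb, and Gm26197 with Tnfsf11. Contacts of such a bait cannot be assigned to the member alone.

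Among members called higher at 48h, the bait of Fas had 6, 10, 19 and 22 contacts at 0h, 1h, 12h and 48h, that of Cd40 15, 16, 18 and 25, and that of Tnfsf9 11, 18, 18 and 23. These numbers were highest at 48h, as were the levels of Cd40 and Tnfsf9. The levels of Fas at 12h and 48h overlapped (48h against 12h 0.49 ± 0.54, adjusted p = 0.582, and -0.15 with the TPM as deposited). Tnfrsf1b, called higher at 48h than at 0h, had 23, 36, 41 and 15 contacts. Of others called higher at 48h, Ltb had 19, 25, 16 and 15 contacts, Tnfsf14 had 10, 13, 9 and 11, and Tnfrsf14 had 9, 11, 10 and 10. Tnfrsf21 had 23, 22, 23 and 28, and Tnfsf10 had 1, 1, 0 and 2. Tnf and Lta share a bait (chr17:35200994-35207744) with 14, 11, 6 and 8 contacts, so their contacts cannot be separated. Tnfrsf19 had 23, 14, 10 and 14 contacts, and Tnfrsf13b, the most abundant member, had 1, 1, 1 and 0. Tnfsf11, listed at 0 in all RNA libraries, had 10 contacts at 48h and 0 before.

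Contacts between baits of members were listed at 2 places. On chromosome 7, the bait shared by Tnfrsf22 and Tnfrsf26 (chr7:143624747-143645057) and that of Tnfrsf23 (chr7:143682320-143689098) were listed as a contact at 12h and 48h and not at 0h and 1h. The shared bait had 0, 0, 2 and 5 contacts in all, and that of Tnfrsf23 had 3, 2, 7 and 6. On chromosome 17, the baits of Tnfsf9 (chr17:57101503-57110839) and Tnfsf14 (chr17:57191244-57196877) were listed as a contact at 48h only. Tnfrsf26 and Tnfrsf23 were called higher than at 0h at the 2 time points with the contact, and Tnfrsf22 was called at neither, although at 12h with the TPM as deposited. Tnfsf9 was called higher than at 0h at 48h, and Tnfsf14 at 12h and 48h.

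**Figure D4:**
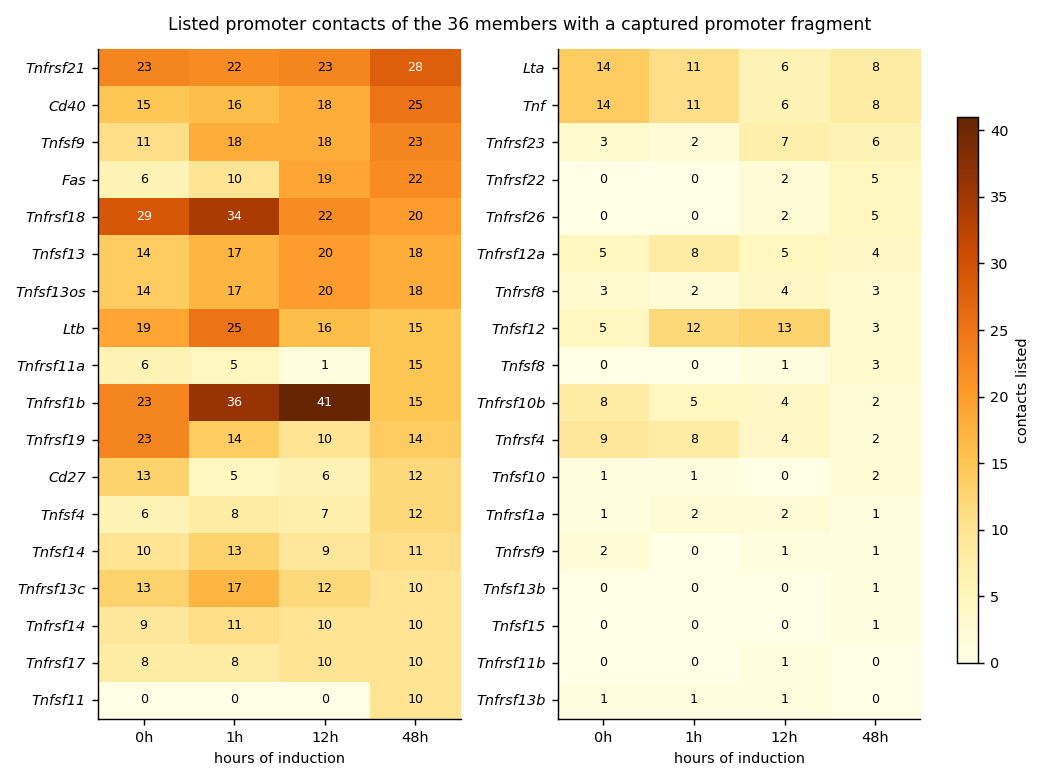
Number of interactions listed for the captured promoter fragment of 36 members (rows, sorted by the number at 48h) at each time point (columns), with the number in each cell and a colour scale from 0 to 41. Tnfrsf21, Cd40, Tnfsf9 and Fas have 22 to 28 contacts at 48h, and Tnfrsf13b has at most 1.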

How the data were processed

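RNA of 12 C10 libraries was sequenced at 4 time points. The authors merged technical replicates, trimmed reads with Trim Galore 0.6.2, mapped them to mm10 with HISAT2 2.1.0 and deposited TPM per gene from RSEM, with biological replicates kept apart. Promoter Capture Hi-C interactions were called by the authors with CHiCAGO after merging of 2 replicates. At 0h the deposited file gives the score of each interaction. At the later time points the deposited files give whole numbers whose unit is unnamed, and these were not used. Hi-C samples were not analysed here, and no results of the authors' own comparisons were used.

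TPM were divided by median-of-ratios size factors over the 11246 genes above 0 in all 12 libraries and log2(value + 0.1) was modelled for the 16415 genes whose mean TPM reached 0.1, in limma 3.58.1 under R 4.3.3 (lmFit, contrasts, eBayes with trend). The study's methods used DESeq2 on counts, which has such size factors, and TPM are not counts. The model was tested on simulated data. Gene positions and starts came from GENCODE M21 (GRCm38), which held 100% of the table's identifiers. Other steps used Python 3.11.15, numpy 2.4.6 and pandas 2.3.3. TPM keep no depth, so precision rests on the 3 libraries per time point.

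Members with a mean of at least 1 TPM are given per library. Others are named with values when called and at a mean of at least 1 scaled TPM at some time point, or as a partner of a described member, and from each other list the called genes that rose most (2) and fell most (2) at 48h are named. The members and lists were chosen with earlier results of these data known. Alternatives varied pseudocount, filter, scaling, trend, weights, block, libraries and call rule. A fit of replicates 1 and 2 alone was added after seeing the data.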

Additional observations from a re-analysis of the deposited data

How the results depend on the processing

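Of 49 called values of members, 30 kept their direction and their side of the threshold under all alternatives in which they were tested, save the fit of replicates 1 and 2 below, and none reversed. Over all these values, 1013 of 1105 such alternatives kept the call and 92 lost it. Low members are limited by the pseudocount and by 3 libraries per time point. The cause of the changes below was not tested.

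Counts of members called changed by more than 1.5 times as follows, and shares of all genes called are given for the main fit only. With the TPM as deposited, 4 were higher at 1h in place of 0, 1 was lower at 12h in place of 2, 2 were lower at 48h in place of 1, 3 were lower at 12h against 1h in place of 1, and 6 were lower at 48h against 12h in place of 2. Without a filter on low values, 1 was lower at 1h in place of 3, 1 was lower at 12h, and 7 were higher at 12h against 1h in place of 11. With a minimum mean of 1 TPM, 6 were higher and 1 lower at 12h (12 and 2 before), 7 higher at 48h (12), 6 higher at 12h against 1h (11), and 2 higher and 1 lower at 48h against 12h (5 and 2). With a log2 fold change beyond 2, 5 were higher and 1 lower at 12h, 7 higher at 48h, 3 higher and 0 lower at 12h against 1h, and 1 lower at 48h against 12h. With a log2 fold change beyond 1, 1 was lower at 48h against 12h. With library weights 1 was higher at 1h. A pseudocount of 0.01 left 1 lower at 12h and 0 lower at 12h against 1h, where limma had 1. A pseudocount of 1 and rescaling without the 20 most abundant genes each left 1 lower at 12h, as did a fit of only the 6 libraries compared, which also left 1 lower at 48h against 12h. Quantile normalization and a fit without the trend each gave 2 lower at 48h in place of 1.

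Leaving out 1 library gave 0 to 1 higher and 2 to 4 lower at 1h, 10 to 12 higher and 1 to 2 lower at 12h, 12 to 14 higher and 1 to 2 lower at 48h, 8 to 11 higher and 1 to 2 lower at 12h against 1h, and 4 to 5 higher and 1 to 4 lower at 48h against 12h. The 1 higher at 1h came without 48h replicate 1 or 48h replicate 3, and the 4 lower at 48h against 12h without 48h replicate 3. At 12h, 1 lower in place of 2 came without any 1 library other than 12h replicate 1 and 48h replicate 1. At 48h, 2 lower came without 0h replicate 2, 1h replicate 1 or 1h replicate 2. At 12h against 1h, 2 lower came without 12h replicate 1, and at 48h against 12h, 1 lower came without 12h replicate 2, 12h replicate 3 or 48h replicate 1.

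The values that reversed were all uncalled. Tnfrsf13b at 1h was -0.025 without 0h replicate 2 and -0.059 without 1h replicate 3, with 0.16 as the highest value without 1 library, and with the TPM as deposited it was 0.048 at 12h and -0.26 at 48h. Tnf at 1h was 0.38 with the TPM as deposited. Tnfrsf26 at 1h was -0.11 under quantile normalization, -0.18 without 0h replicate 3, -0.13 without 1h replicate 2 and -0.025 without 1h replicate 3, with 0.22 as the highest value without 1 library.

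Samples share a replicate number, and the labels do not say whether libraries of the same number were handled together. Correlations of deviations between libraries of the same number were not all over 0.1, which cannot decide this. They ran from 0.01 to 0.11 for replicate 1 and -0.01 to 0.06 for replicate 2. For replicate 3 they ran from 0.08 to 0.26, with 5 of 6 pairs over 0.1, so that this set stands apart. With the replicate number as a block, 0 members were higher and 3 lower at 1h, 12 and 2 at 12h, 13 and 1 at 48h, 11 and 1 at 12h against 1h, and 5 and 2 at 48h against 12h. Not every library correlated best with one of its own number. Of the 49 calls, the block ended that of Tnfrsf11a at 48h against 12h (1.10, adjusted p = 0.0617) and added those of Tnfrsf10b at 48h against 0h (0.83, adjusted p = 0.0142) and Tnfrsf12a at 48h against 12h (1.47, adjusted p = 0.0386).

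With replicates 1 and 2 alone, chosen after seeing the data, 1 member was lower at 1h and 1 at 12h, where 7 were higher. At 12h against 1h, 6 were higher and 0 lower, and at 48h against 12h 1 was lower, with 8 libraries in the fit in place of 12. The uncalled 1h differences of Tnfsf9 (-0.051) and Tnfrsf26 (-0.23) reversed there.

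Counting only contacts with a fragment that is no bait, the members' medians over the 4 time points were 3, 2, 2.5 and 2.5, and for 0h a minimum score of 10 gave a median of 0.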
